A study of Mus musculus with 4 samples.

Results

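The replication-dependent histone genes encode the core histones H2A, H2B, H3 and H4 and the linker histone H1 that package newly copied DNA during S phase. In the mouse they lie in clusters named Hist1 to Hist4, most of them on chromosome 13. Here they were taken as the protein-coding genes of the GENCODE annotation of mouse genome build mm9 whose symbol begins with Hist1h, Hist2h, Hist3h or Hist4h. The rule gave 67 genes of 22380 coding genes, namely 6 H1, 19 H2A, 18 H2B, 11 H3 and 13 H4 genes. Their positions were compared with the genomic regions occupied by RIF1, a chromatin protein that controls replication timing, in activated B cells. The rule did not use the occupancy data.

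RIF1 was mapped by ChIP-seq, the sequencing of DNA recovered with a precipitated chromatin protein, in primary splenic B cells that had been activated with 5 µg/ml lipopolysaccharide and 5 ng/ml interleukin 4 and harvested at 72 h. Rif1FH/FH cells (2 samples), in which the RIF1 protein carries an N-terminal FLAG-HA tag, provided the occupancy data. The Rif1FH/FH mice were also kept on a C57BL/6 background. C57BL/6 (Rif1WT/WT) cells (2 samples), without the tag, were the negative control and entered no comparison here, as the occupancy data consisted of 1 list of intervals combined by the authors from both Rif1FH replicates. The list held 16043 narrow peaks, of 14827 bp at most, and 289 wide intervals of at least 90 kb, which were taken to be RIF1-associated domains (RADs), broad regions of lower enrichment. It carried no height, score or value per sample, so depth and the variation between replicates are unknown, no test was made, and the intervals given below cover counting error only. The files hold no expression, so the labelled cell type could not be checked against its markers.

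Histone mRNAs of this kind end without a poly(A) tail. In its place they carry a short stem-loop, which the stem-loop binding protein SLBP holds during 3′ end cleavage, export and translation, and the amount of each mRNA rises in S phase and falls at its end. The genes lack introns as a rule, H2A and H2B genes often face each other and share a promoter, and the factor NPAT gathers at the clusters in nuclear histone locus bodies. RIF1 is known from other cell types for binding late-replicating chromatin and recruiting protein phosphatase 1, which holds back replication origins. In B cells, by contrast, the authors report that most RADs lay in early-replicating regions and that RIF1 promotes early replication. The replication timing of the histone genes was not examined here.

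The stem-loop is the sequence feature by which these genes are known, and it was not used to choose them. An inverted repeat of 16 bases, with a stem of 6 and a loop of 4, was found within 150 bases after the stop codon in 63 of the 67 genes (94.0%, Wilson 95% interval 85.6 to 97.7%). The same search was positive in 8.73% of all coding genes with a stop codon (1915 of 21930). Any sequence that pairs with itself counts in that search, whereas the histone genes used only 8 forms. The 5 forms found in at least 2 of the genes are shown here as they stand in the mm9 sequence of the gene's strand, with the stem in capitals and the loop in lower case.
Most frequent form, 39 genes, as in Hist2h2aa2 (chr3:96043707-96043722, minus strand): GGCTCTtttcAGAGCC
Form of 9 genes, as in Hist2h2ab (chr3:96024256-96024271, plus strand): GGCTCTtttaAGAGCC
Form of 8 genes, all H4, as in Hist4h4 (chr6:136752519-136752534, minus strand): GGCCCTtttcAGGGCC
Form of 2 genes, both H4, as in Hist2h4 (chr3:96066862-96066877, minus strand): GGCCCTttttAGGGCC
Form of 2 genes, both H4, as in Hist1h4j (chr13:21827306-21827321, plus strand): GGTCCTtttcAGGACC
The stem divided the genes by class. It began with GGCTCT in 50 genes, which were 6 H1, 17 H2A, 16 H2B and 11 H3 genes. In the 13 H4 genes it began with GGCCCT (11 genes) or GGTCCT (2 genes). The repeat began a median of 31 bases after the stop codon (22 to 59). No such repeat was found within this distance in Hist2h2be, Hist2h2bb, Hist1h2an and Hist1h2al. Outside the group, the most frequent form was found in 1 other coding gene, 1700014N06Rik.

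The promoters shared further sequence. The TATA, CCAAT and octamer motifs were searched on both strands from 250 bases before to 50 bases after the 5′ end of the gene. This is the 5′ end of the annotated record, and no transcription start was mapped here. In Hist2h2ab, whose record spans 393 bp, the sequence from the 5′ end on opens with the start codon ATG. For records of this kind, motif distances and the spacing of pairs are not counted from a transcription start. TATAAA, the core of the TATA box, was present in 38 of 67 genes (56.7%), against 13.4% of all coding genes. In some of the 38 it lay only on the opposite strand, as in Hist2h2be, or only after the 5′ end, as in Hist1h2ak. CCAAT, the motif of the CCAAT box, was present in 57 genes (85.1%), against 37.9% of all coding genes. It was found in all 6 H1, 19 H2A and 18 H2B genes and in 10 of 11 H3 genes, but in 4 of 13 H4 genes. The H3 counts include Hist2h3c1, whose window is nearly that of the H2A gene Hist2h2aa1. ATTTGCA, the core of the octamer bound by POU factors and long known from H2B promoters, was present in 15 genes (22.4%), against 3.98% of all coding genes. These were 8 H2B and 7 H2A genes, and it was found in no H1, H3 or H4 promoter. In the 8 H2B genes it lay on the strand of the gene, and in the 7 H2A genes on the opposite strand. Many of these promoters are the same DNA read from both sides, since 13 pairs of genes faced each other with 5′ ends at most 693 bp apart (median 241 bp, lowest 168 bp), of which 12 were H2A and H2B pairs and the widest was the H2B and H3 pair Hist1h2bh and Hist1h3f. In 5 of the 13 pairs both genes had the octamer core in their window. Counted over 52 units in which genes with 5′ ends within 1 kb were joined, the CCAAT motif was found in 43, the TATA motif in 28 and the octamer core in 10. The GC content of the 5′ end with its flanks of 1 kb had a median of 49.4%, against 51.1% over all coding genes.

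The promoters of 5 genes are shown as examples of these motifs and of each kind of listed interval. Hist3h2ba and Hist3h2a were the genes with a narrow peak, Hist2h2ab was the first gene in a wide interval, Hist1h2bq was the first of 4 genes tied at the lowest share of unique sequence, and Hist1h2bk faces Hist1h2ah across 178 bp. Hist3h2a and Hist1h2bk were added after their values were seen. Each runs from 250 bases before to 50 bases after the 5′ end on the gene's strand, and capitals mark TATAAA, which reads as TTTATA where it lies on the other strand, CCAAT, which then reads as ATTGG, and the octamer core ATTTGCA, which then reads as TGCAAAT.
Hist3h2ba, mm9 chr11:58762163-58762462, plus strand: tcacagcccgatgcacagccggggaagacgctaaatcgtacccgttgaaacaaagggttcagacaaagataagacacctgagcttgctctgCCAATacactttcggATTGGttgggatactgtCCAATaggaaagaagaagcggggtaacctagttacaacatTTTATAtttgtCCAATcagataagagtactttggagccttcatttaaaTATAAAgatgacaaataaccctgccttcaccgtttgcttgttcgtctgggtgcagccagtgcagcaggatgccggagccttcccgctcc
Hist3h2a, mm9 chr11:58767937-58768236, plus strand: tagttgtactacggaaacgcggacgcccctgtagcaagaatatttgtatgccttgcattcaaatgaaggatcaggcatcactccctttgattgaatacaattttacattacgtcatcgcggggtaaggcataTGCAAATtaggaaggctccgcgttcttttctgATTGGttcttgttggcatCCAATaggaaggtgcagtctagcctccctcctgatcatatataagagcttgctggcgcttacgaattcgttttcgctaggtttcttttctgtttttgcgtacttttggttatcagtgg
Hist2h2ab, mm9 chr3:96023589-96023888, plus strand: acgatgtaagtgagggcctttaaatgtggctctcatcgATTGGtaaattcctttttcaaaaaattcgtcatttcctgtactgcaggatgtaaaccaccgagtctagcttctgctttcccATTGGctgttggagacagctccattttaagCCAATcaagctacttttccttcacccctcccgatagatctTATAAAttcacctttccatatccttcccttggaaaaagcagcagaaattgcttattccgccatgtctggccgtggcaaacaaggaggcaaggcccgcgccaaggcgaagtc
Hist1h2bq, mm9 chr13:21902019-21902318, minus strand: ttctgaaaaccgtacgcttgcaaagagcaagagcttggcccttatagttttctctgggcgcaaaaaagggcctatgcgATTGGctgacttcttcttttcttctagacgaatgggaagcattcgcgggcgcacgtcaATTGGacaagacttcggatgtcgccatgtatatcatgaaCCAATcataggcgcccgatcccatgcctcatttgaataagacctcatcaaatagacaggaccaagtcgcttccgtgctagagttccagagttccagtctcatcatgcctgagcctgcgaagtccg
Hist1h2bk, mm9 chr13:22127440-22127739, plus strand: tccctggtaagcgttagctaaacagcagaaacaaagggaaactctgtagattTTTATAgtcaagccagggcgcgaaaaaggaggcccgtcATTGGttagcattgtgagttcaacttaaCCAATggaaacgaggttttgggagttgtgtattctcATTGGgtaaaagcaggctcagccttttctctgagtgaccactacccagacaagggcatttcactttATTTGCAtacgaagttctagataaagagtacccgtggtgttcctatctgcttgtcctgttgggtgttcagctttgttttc
CCAAT or its complement occurred at least 2 times in each of these promoters. In Hist3h2ba, an H2B gene, TATAAA lay 39 bases before the 5′ end. In Hist3h2a the octamer core lay on the other strand, 118 bases before the 5′ end, towards the neighbouring H2B pseudogene Hist3h2bb-ps. In Hist1h2bk it lay 30 bases before the 5′ end on the strand of the gene.

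**Figure D1:**
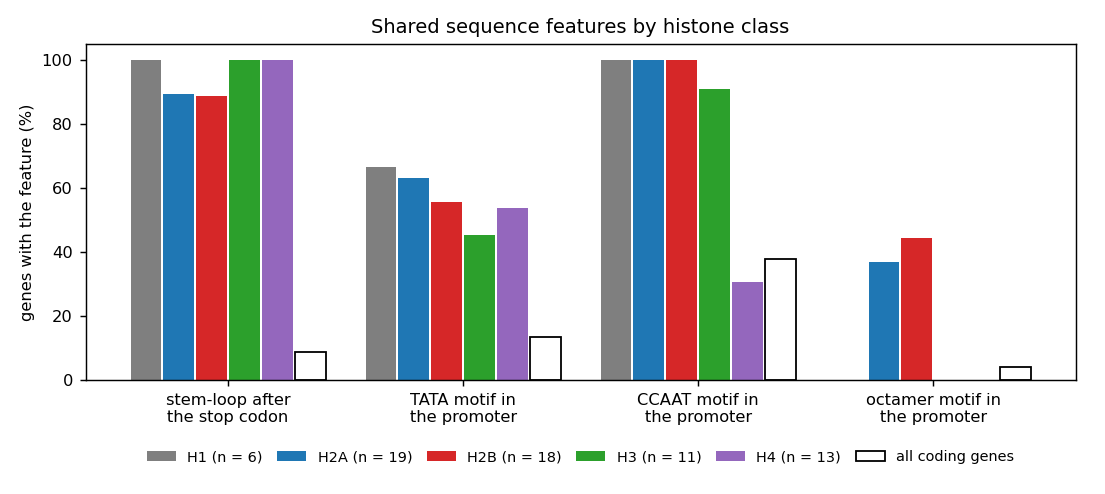
Bars give the share of genes (%) with a stem-loop repeat after the stop codon or with a motif in the promoter, for each histone class (coloured, n in the legend) and for all coding genes (open bars). H4 genes had the stem-loop in 13 of 13 cases but CCAAT in only 4 of 13, and the octamer core was found in H2A and H2B genes alone.

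Nearly all of these genes lay in listed wide intervals. A wide interval places a gene inside a called region and gives no value at the gene itself. A wide interval covered the 5′ end and its flanks of 1 kb in 65 of the 67 genes (97.0%, Wilson 95% interval 89.8 to 99.2%), against 22.1% of all coding genes (4940 of 22380). A narrow peak met the window in 2 genes (2.99%, 0.822 to 10.2%), Hist3h2ba and Hist3h2a, against 31.8% of all coding genes (7125). Not a single gene of the 67 was without an interval, which allows a share of up to 4.48% by counting error, against 46.1% of all coding genes (10315). Counted over the gene itself the numbers were again 65 and 2, against 22.6% of all coding genes for wide intervals and 35.8% for narrow peaks. The whole window and the whole gene lay inside the wide interval in all 65 genes. By class, the wide interval covered 6 of 6 H1, 18 of 19 H2A, 17 of 18 H2B, 11 of 11 H3 and 13 of 13 H4 genes. The authors kept no peak that overlapped a RAD, and 0 of the 16043 narrow peaks overlapped a wide interval, so that the list does not say whether a narrow peak was called at any of the 65 genes.

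The 67 genes do not stand for 67 separate observations, so the limits above, which count each gene by itself, are too narrow. They fell into 8 runs, within which neighbouring genes lay at most 100 kb apart, and rested on 7 listed intervals, 5 wide and 2 narrow. In the 7 runs outside Hist3, all bases from the first to the last histone gene were in a wide interval.

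**Figure D2:**
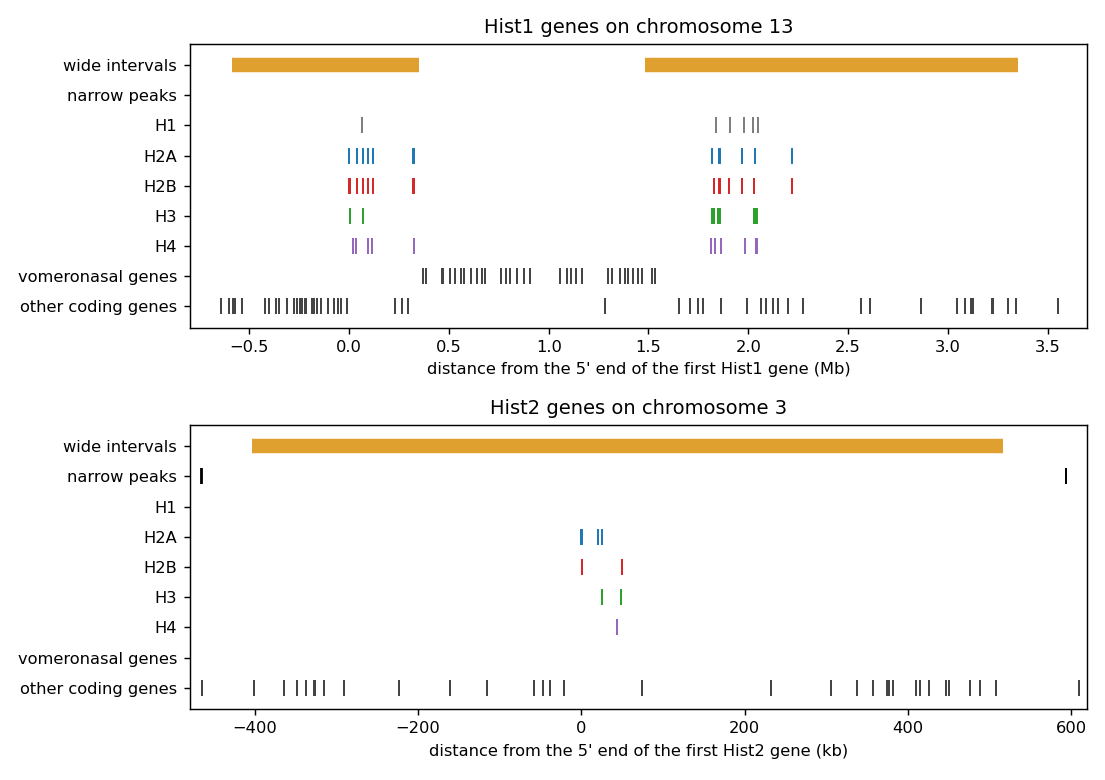
Positions of listed wide intervals (bars), narrow peaks and coding gene 5′ ends (ticks) around the Hist1 genes (upper panel, Mb) and the Hist2 genes (lower panel, kb), as distance from the 5′ end of the first histone gene. Histone genes of all classes sit inside the wide intervals, and the vomeronasal receptor genes lie mainly between the 2 intervals of the upper panel.

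On chromosome 13, 54 Hist1 genes, all but Hist1h2al, lay in 2 wide intervals 1132 kb apart. The first (chr13:21222001-22160000, 938 kb) held 23 genes in 2 runs. A run of 18 genes reached from Hist1h2bl to Hist1h2br over 122 kb, and a run of 5 genes from Hist1h2ah to Hist1h2bj ended 24.5 kb before the right edge of the interval. The 5′ end of Hist1h2bj, an H2B gene, was 24.9 kb from that edge, nearest of the 65 genes. The interval also held 27 other coding 5′ ends, of which 11 were olfactory receptor and 6 zinc finger genes.

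The second interval (chr13:23292001-25160000, 1868 kb) held 31 histone genes and ranked 17th by width among the 289 wide intervals. Its main run of 29 genes, from Hist1h4h to Hist1h1a, spanned 233 kb and included 5 of the 6 H1 genes. The only other coding genes in that run were Hfe, which regulates iron uptake, and Gm17658. The pair Hist1h2ba and Hist1h2aa lay further to the right, and the 5′ end of Hist1h2aa was 734 kb from an edge, farthest of the 65 genes. These 2 genes and the linker histone gene Hist1h1t are known as testis forms, and all 3 lay inside the wide interval beside the genes of dividing cells.

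Between both intervals the list held neither a narrow peak nor a wide interval. The gap (chr13:22160001-23292000) held 32 coding 5′ ends, of which 31 belonged to vomeronasal receptor genes, a family expressed in the vomeronasal organ, and 0 to histone genes. Of the 50-mers in the gap, 70.5% occurred once in the genome, against 88.3% and 91.6% in the intervals on its left and right. As the authors kept uniquely aligned reads only, fewer positions could have carried reads in the gap than beside it, and the part of this difference in where the intervals end was not tested.

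The neighbourhood of Hist1 was also poor in listed narrow peaks. The nearest narrow peaks on either side lay 9106 kb apart, which was the 4th longest of 16023 stretches between neighbouring narrow peaks. This stretch held 172 coding 5′ ends, 54 of them of histone genes, and 37.5% of it was in wide intervals. As peaks that overlapped a RAD were not kept, no narrow peak could be listed in that 37.5%. The same rule lengthens the distance to a narrow peak for any gene inside a wide interval. The other coding genes at wide intervals are therefore the closer comparison below. Over all 67 genes the nearest narrow peak was a median of 1855 kb from the 5′ end (0 to 3748 kb), against 41.1 kb for all coding genes and 442 kb for the other coding genes at wide intervals. That median was set by the Hist1 genes, as they shared the same few nearest peaks, and distances were 465 to 515 kb at Hist2 and 498 kb at Hist4h4.

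The remaining wide intervals held fewer histone genes. The 9 Hist2 genes, from Hist2h2ab to Hist2h2bb, took up 59.1 kb near the middle of an interval of 920 kb on chromosome 3 (chr3:95620001-96540000), with 404 kb before and 457 kb after them. Hist4h4, an H4 gene by itself on chromosome 6, lay in an interval of 756 kb (chr6:136224001-136980000), 227 kb from its edge. Hist1h2al, an H2A gene far from the other Hist1 genes, lay in an interval of 2420 kb (chr13:50800001-53220000), the 10th widest. The last of these was poor in genes, with 5.79 coding 5′ ends per Mb. The other 4 had 22.5 to 53.3, against a median of 14.6 over all wide intervals (quartiles 7.63 and 28.8), and the histone genes themselves are part of these counts. They made up 31 of 57 coding 5′ ends in the 1868 kb interval and 23 of 50 in the 938 kb interval. In the 920 kb and 756 kb intervals they were 9 of 42 and 1 of 17. No density without them was taken, so these intervals cannot be called rich in other genes.

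The 2 Hist3 genes were the exception. Hist3h2ba, an H2B gene (chr11:58762413-58763032), was covered whole by a peak of 2239 bp (chr11:58761540-58763778), which began 873 bp before the gene and ended 746 bp after it. Hist3h2a, an H2A gene (chr11:58768187-58770176), shared a peak of 2767 bp (chr11:58766529-58769295) with the pseudogene Hist3h2bb-ps. This peak covered 55.7% of Hist3h2a and the whole pseudogene, and its midpoint lay at -275 bp relative to the 5′ end of Hist3h2a. That 5′ end is also the annotated 5′ end of Trim17, which encodes a TRIM family protein, so the peak cannot be assigned to either of these genes. Both peaks were wider than the median narrow peak of 1365 bp (quartiles 916 and 1979 bp), and 81.8% and 90.5% of narrow peaks were no wider. They lay 2.75 kb apart. Further peaks of 759 and 3811 bp followed within 5 kb to the right of the second one, at no annotated 5′ end and at the pseudogene Gm12260.

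**Figure D3:**
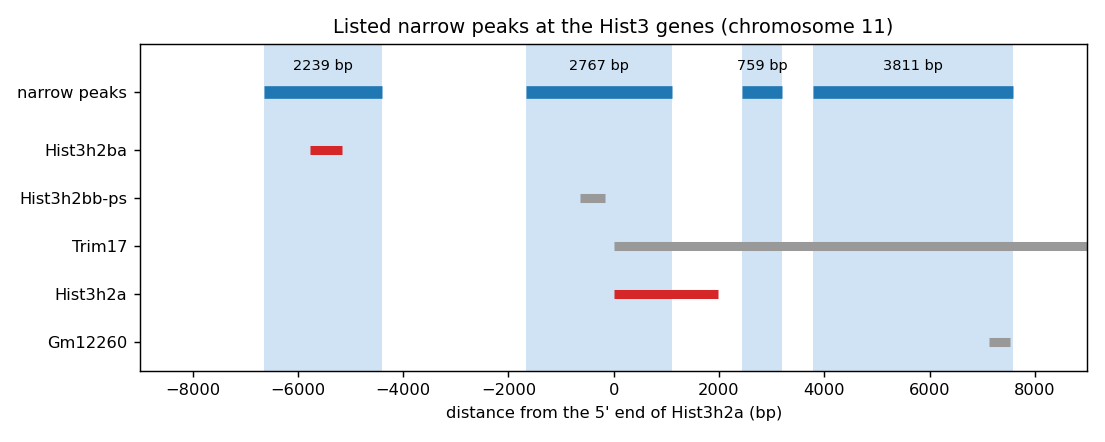
Listed narrow peaks (blue, widths in bp) and annotated genes around the Hist3 genes, as distance in bp from the 5′ end of Hist3h2a (red, histone genes; grey, other genes). The 2239 bp peak covered all of Hist3h2ba, and the 2767 bp peak lay over the 5′ end shared by Hist3h2a and Trim17.

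Since the authors kept only reads that align to 1 place, repeated sequence limits where reads could be counted. In the 2001 bp around the 5′ end, 80.7% (median, quartiles 68.9 and 90.5%) of 50-mers occurred once in mm9, against a median of 100% over all coding genes and over the other coding genes at wide intervals. The mean was 72.9% ± 25.9 (SD, n = 67), against 92.4% ± 20.1 over all coding genes. Within the genes the median was 54.2%. Class medians were 96.7% for H1, 90.0% for H4, 78.3% for H3, 70.5% for H2B and 70.0% for H2A. The read length of the ChIP-seq libraries was not given in the sources used here, and an exact search overstates what can be placed when mismatches are allowed.

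A few genes had next to no unique sequence. The windows of Hist1h2bq, Hist1h2ao, Hist1h2ap and Hist1h2br held 0% unique 50-mers, as this part of the cluster is present 2 times. Over the 2001 bp of their windows, Hist1h2bq and Hist1h2br, 23.5 kb apart, differed at 0 bases, and so did Hist1h2ao and Hist1h2ap. Hist1h4m and Hist1h4n, in the same duplicated stretch, had 7.02% and 8.04%. Next came Hist2h3c1 (42.7%), Hist2h2aa1 (43.5%) and Hist2h2aa2 (43.7%) on chromosome 3. These 9 genes were those under 50%, and each lay wholly inside a wide interval. A read of this length from a window with 0% unique 50-mers aligns to more than 1 place and would not have been kept. The Hist3 genes with narrow peaks were at 93.1% (Hist3h2ba) and 90.9% (Hist3h2a). At the upper end, 4 genes were at 100%, the H1 genes Hist1h1b, Hist1h1t and Hist1h1a and the H2B gene Hist1h2be. The annotated record of Hist1h2be spans 37383 bp, against a median of 530 bp for the 67 genes, and its stop codon lies towards the opposite end. The record of the H3 gene Hist2h3c1 begins at chr3:96049477, close to that of the H2A gene Hist2h2aa1 at chr3:96049461 on the same strand. Their windows are therefore nearly the same DNA and not separate values.

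**Figure D4:**
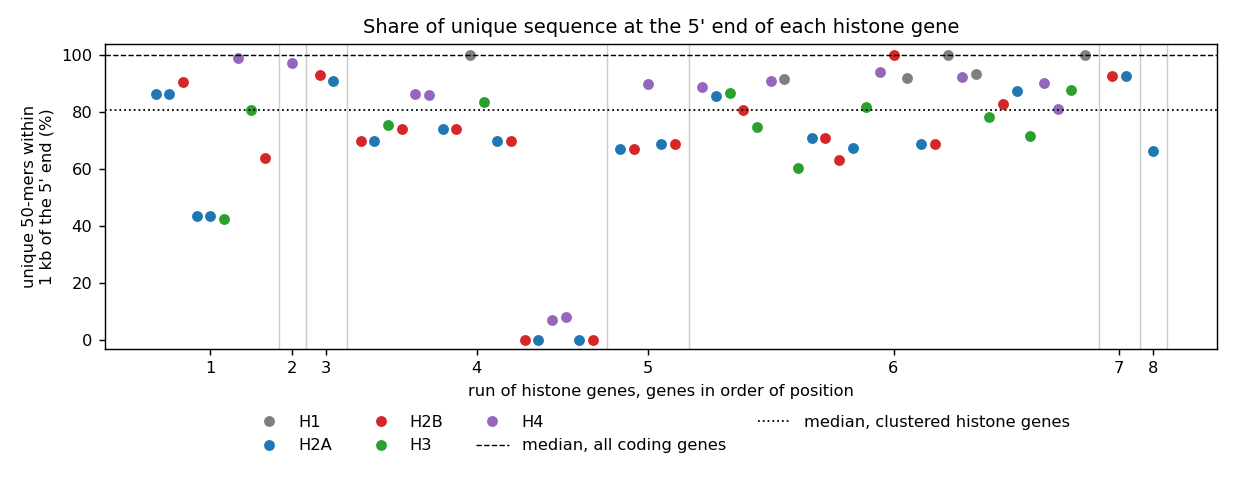
Each point is 1 histone gene, with the share of 50-mers within 1 kb of its 5′ end that occur once in the genome (%, y axis), in order of position within the 8 runs (x axis: 1 is Hist2, 2 is Hist4, 3 is Hist3, 4 to 8 are Hist1), coloured by class. The dashed and dotted lines give the medians of all coding genes (100%) and of the histone genes (80.7%), and 6 genes at the end of run 4 lie at or below 8.04%.

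Other genes of the histone pathway were set beside them by the same measure, for which all coding genes gave 31.8% with a narrow peak, 22.1% in a wide interval and 46.1% with neither. Histones that are made outside S phase as well come from single genes elsewhere in the genome, and 14 of the 20 symbols listed were in the annotation as coding genes. Of these, 5 had a narrow peak at the 5′ end, 4 lay in a wide interval and 5 had neither, or 35.7%, 28.6% and 35.7%, which was near the shares of all coding genes for narrow peaks and wide intervals. Narrow peaks were at H2afz (1385 bp) and H2afv (1212 bp), which encode the H2A.Z variants, and at H2afy (2193 bp), which encodes macroH2A1. The others of the 5 were at H1foo (3017 bp) and Cenpa (1330 bp). H2afy2, which encodes macroH2A2, had no interval within 1 kb and its nearest narrow peak was 134 kb away. H2afx, whose product is phosphorylated at DNA breaks, lay in a wide interval of 808 kb. Its gene carries a stem-loop repeat of its own, as its mRNA can end in the replication-dependent way, and the form was not among the 8 found in the clustered genes (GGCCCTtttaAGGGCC, stem in capitals). H2afj lay in the same wide interval as its neighbour Hist4h4.

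All 21 genes listed for histone mRNA transcription and 3′ end processing were matched. Of these, 10 had a narrow peak (47.6%), 8 lay in a wide interval (38.1%) and 3 had neither (14.3%), against 31.8%, 22.1% and 46.1% of all coding genes. Npat, the coactivator of the clusters, had a peak of 2476 bp at its 5′ end, and peaks were also found at Slbp (1365 bp) and at Lsm10 (1369 bp), which encodes a protein of the U7 snRNP that directs histone mRNA cleavage. Its partner Lsm11 had no interval within 1 kb and a narrow peak 10.1 kb away. Hinfp, a transcription factor of H4 genes, lay in the same 808 kb wide interval as H2afx, and Casp8ap2, a histone locus body protein, also met a wide interval. The 20 genes for histone chaperones and deposition comprised 8 with a narrow peak, 11 in a wide interval (55.0%, against 22.1% of all coding genes) and 1 with neither, Nap1l4. The peak at Asf1a, a chaperone of H3 and H4, was 1483 bp wide, whereas Asf1b and the chromatin assembly factor genes Chaf1a, Chaf1b and Rbbp4 lay in wide intervals. Wide intervals took in 28.6%, 38.1% and 55.0% of the genes of these lists, 22.1% of all coding genes and 97.0% of the clustered genes, and the differences were not tested since neighbouring clustered genes share an interval.

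**Figure D5:**
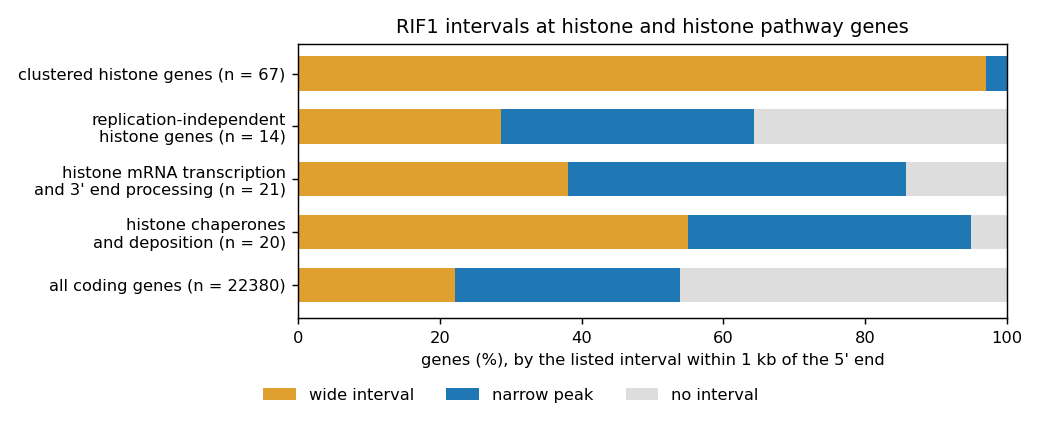
Stacked bars give the share of genes (%) whose 5′ end window met a wide interval (orange), a narrow peak (blue) or no interval (grey), for the 67 clustered histone genes, 3 lists of related genes and all 22380 coding genes. The clustered genes were at 97.0% wide and 2.99% narrow, while each other list held genes of all 3 states.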

How the data were processed

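ChIP-seq of tagged RIF1 was analysed from 1 list of intervals in mm9, which the authors deposited with chromosome, start and end only, so that its values are positions and no other unit. As the study and the labels describe, the authors trimmed reads with Trim Galore 0.6.4, aligned them with Bowtie 1.0.0 keeping unique alignments, called peaks with MACS2 2.2.6 in each replicate and RADs with EDD, merged them with bedtools 2.27.1 and kept what both Rif1FH replicates shared. Unique alignment discards reads from sequence that is present in identical copies. The antibody label names CD43 beads, whereas the protocol describes anti-HA, which was followed here. Replicates of Rif1FH were already combined, no value per sample was analysed, and depth is unknown.

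Intervals under 50 kb were called narrow and the others wide. They were intersected, by at least 1 bp, with genes of the GENCODE M1 annotation of mm9 (37310 records) and with the 5′ end of each gene and its flanks of 1 kb. Shares carry Wilson 95% intervals, and a count of 0 an upper limit of 3 counts. Unique 50-mers are those found once on either strand of mm9. The overlap, uniqueness and repeat searches were tested on simulated data. Python 3.11.15, numpy 2.4.6, numba 0.67.0 and matplotlib 3.10.9 were used. The histone genes and the lists were chosen with earlier results of these data known. Genes named were those with a narrow peak, the ends of each run, the one nearest to an interval edge and up to 6 of each list in list order with each state present. Other genes named, and promoters marked as added, were chosen after their values were seen.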

Additional observations from a re-analysis of the deposited data

How the results depend on the processing

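The shares of histone genes with a narrow peak, a wide interval or neither were recomputed with windows of 0.1, 0.5 and 5 kb, with coverage of at least 50% required, with any transcript's 5′ end, with wider intervals only, with all biotypes, over 52 units and without the run of 29 genes. Narrow peaks were then at 2.99 to 5.26% of genes, wide intervals at 94.7 to 97.0%, and 0 genes were without an interval each time. Windows of up to 5 kb and the coverage rule could not change the wide state, as the 65 genes lay at least 24.9 kb inside an interval. Nor could the choice of wider intervals, as theirs measured 756 to 2420 kb, against a median of 576 kb over all wide intervals. Distinct narrow peaks at the genes numbered 2, but 4 with a window of 5 kb. The median GC content of the windows was 49.4%, and 52.7% and 54.0% with windows of 0.1 and 0.5 kb. No value over all coding genes is given for the 0.1 and 0.5 kb windows. The 51.1% given for 1 kb is no comparison for them. The mean share of unique sequence was 72.9% with 50-mers, 70.5% with 36-mers and 76.4% with 75-mers, and the stem-loop was found in the same number of genes within 300 bases of the stop codon. Of 42 alternatives, 39 stayed within the limits of the main values and 3 moved, though a number of the 39 could not have moved for the reasons given above.

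No paired analysis was possible because both Rif1FH replicates are combined and no value per sample was given. For the same reason leaving out each replicate in turn was not run, and no difference from Rif1WT was taken. Without heights or depth, the list gives presence or absence at the authors' thresholds only.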
